A study of Mus musculus with 4 samples.

Results

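The C1q macrophages described here are the macrophages of orthotopic KPC pancreatic tumors that carried transcripts of the complement genes C1qa, C1qb and C1qc. A cell was counted as a member when it had at least 200 genes detected, at least 3 of the 6 macrophage genes Csf1r, Adgre1, Cd68, Lyz2, Ctss and Msr1, and at least 5 unique molecular identifiers (UMIs, 1 per captured transcript) summed over the 3 C1q genes. Cells with 2 or more of the 4 neutrophil genes Csf3r, Retnlg, Cxcr2 and Il1r2, with 4 or more of the 7 epithelial genes Krt7, Krt8, Krt18, Krt19, Epcam, Cldn4 and Cldn7, or with 3 or more UMIs of the metalloelastase gene Mmp12 were left out. The members were thus chosen by their detected genes and by their C1q and Mmp12 UMIs, and the levels of these genes are given as a description. The rule found 2132 cells, which is 4.79% of the 44554 cells with at least 200 genes and 51.9% of the 4108 cells that passed the macrophage part of the rule without regard to C1q and Mmp12. The gated cells that were not members fell into 1065 C1q-low cells, with fewer than 5 C1q UMIs and fewer than 3 Mmp12 UMIs, and 911 Mmp12 cells, with 3 or more Mmp12 UMIs. These last were not low in C1q, since 79.8%, 68.6%, 83.9% and 84.7% of them also had 5 or more C1q UMIs in the order of libraries given next.

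There were 4 libraries, 1 per condition. They are given in a fixed order in every set of 4 values below, first the Pdgfrb-TK mice on GCV (Pdgfrb-TK/GCV) and on PBS (Pdgfrb-TK/PBS), then the wild-type mice on D-CAN (D-CAN) and on PBS (WT/PBS). Both Pdgfrb-TK groups carry herpes thymidine kinase under the Pdgfrb promoter, so that ganciclovir (GCV, 50 mg/kg) kills cells in which that promoter is active, while the D-CAN and WT/PBS groups are wild type. D-CAN (30 mg/kg) is a peptide that homes to adipose stromal cells and is linked to a second peptide that induces apoptosis. GCV, D-CAN or PBS was given every other day for 25 days. All groups are given as C57BL/6 in the labels (the methods name C57BL/6J for the D-CAN mice) and were males made obese by a high-fat diet for 24 weeks and all were grafted with KPC FC1242 cells, a mouse pancreatic cancer line. The labels give an age of 7 months and the methods an age of 12 months at grafting. Cells of several tumors were pooled by treatment with 200000 cells from each tumor, although each title names a single mouse, and the protocol text in the labels describes nuclei of another tissue. With 1 library per condition a difference between conditions cannot be told apart from a difference between libraries, so no test was made. All intervals are exact 95% intervals that cover counting error only.

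C1q is the recognition molecule of the classical complement pathway. Its A, B and C chains assemble into a bouquet with collagen-like stalks and globular heads that bind immune complexes, apoptotic cells and other surfaces, and macrophages make it themselves in many tissues. In tissues and tumors, high C1q transcripts usually go together with Apoe, lysosomal genes and scavenger receptors, and are found both in long-lived resident macrophages and in macrophages that mature from blood monocytes.

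The 3 chains are neighbors in the genome. In mm10 (GENCODE release M21), C1qb (ENSMUSG00000036905) lies at chr4:136880129-136886187, C1qc (ENSMUSG00000036896) at chr4:136889804-136893065 and C1qa (ENSMUSG00000036887) at chr4:136895917-136898803, all on the minus strand and within 18.7 kb. The gaps between the gene bodies are 3616 bases and 2851 bases. The promoters of C1qb and C1qc are shown because the counts of these genes chose and rank the cells. They are RefSeq sequences on GRCm38.p6, from 250 bases before to 50 bases after the RefSeq start, at chr4:136886151-136886450 for C1qb and chr4:136892865-136893164 for C1qc, both on the minus strand and written 5′ to 3′. The RefSeq and GENCODE starts differ. For C1qc the RefSeq start lies inside the GENCODE gene body given above, so that much of its window overlaps that gene body.
C1qb: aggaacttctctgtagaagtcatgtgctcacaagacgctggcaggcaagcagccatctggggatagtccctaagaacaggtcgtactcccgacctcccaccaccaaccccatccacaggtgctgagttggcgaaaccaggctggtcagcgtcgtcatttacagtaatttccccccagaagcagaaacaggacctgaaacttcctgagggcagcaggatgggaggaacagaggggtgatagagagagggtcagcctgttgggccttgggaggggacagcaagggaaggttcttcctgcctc
C1qc: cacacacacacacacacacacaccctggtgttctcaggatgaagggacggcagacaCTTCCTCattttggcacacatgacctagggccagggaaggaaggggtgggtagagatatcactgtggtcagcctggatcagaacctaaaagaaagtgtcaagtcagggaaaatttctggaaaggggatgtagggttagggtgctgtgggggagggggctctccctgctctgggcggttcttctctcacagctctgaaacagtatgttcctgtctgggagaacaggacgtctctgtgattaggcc
The capitals mark the only match, in either promoter and on either strand, to the PU.1-type letters GAGGAAG, read here on the other strand with its first base at position -194 from the RefSeq start. These letters are in 13.6% of 32851 promoters of the same length. The MAF-type letters TGCTGAC, in 4.67% of those promoters, matched neither window.

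The libraries held 12280, 10495, 10786 and 11657 deposited cells with 127722502, 84020317, 130115741 and 155408336 UMIs. The members numbered 842, 246, 482 and 562 and held 6434171, 993419, 3233174 and 4702724 UMIs. A member had a median of 6727, 3370.5, 5325.5 and 7216.5 UMIs, so the Pdgfrb-TK/PBS members were the fewest and the shallowest. Median mitochondrial content was 3.66%, 3.34%, 3.56% and 3.76% of UMIs, and 1, 1, 13 and 7 members exceeded 20%. Between 26 and 42 cell barcodes were shared by any 2 libraries, and none was a member in both.

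RNA of other cell types was present in the members. The 8 epithelial genes, led by the keratins Krt18 and Krt8, summed to 829.8, 1752, 661.6 and 734.7 CPM (UMIs of a gene per 1000000 UMIs of the members), which is 15.2%, 23%, 14.0% and 11.2% of their level in cells outside the macrophage gate. Only 37.4%, 48.4%, 77.0% and 40.6% of members had fewer than 2 of the 7 epithelial genes of the rule. The other members had 2 or 3 of them, and D-CAN had the fewest such members by share. The 8 fibroblast genes, led by Col3a1, Dcn, Col3a1 and Col1a1, summed to 122.6, 185.2, 665.9 and 1346 CPM. Members with 2 or more genes of a fibroblast, T and NK cell or B cell list made up 5.46%, 5.28%, 23.03% and 43.8% of the members, so that the D-CAN and WT/PBS members carried most of this signal. The 9 T and NK cell genes summed to only 7.93, 5.03, 17.01 and 1.06 CPM, and 2, 6, 2 and 5 of them were at 0. The 7 B cell genes summed to 23.5, 28.2, 91.9 and 21.5 CPM, the highest again in D-CAN and led there by Ighm, and the 8 dendritic cell genes to 18.7, 29.2, 71.5 and 34.0 CPM. The neutrophil list, with S100a8 and S100a9 beside the genes of the rule, summed to 216.3, 210.4, 172.9 and 216.7 CPM. Free RNA and 2 cells in 1 droplet both give such counts, and their part in the values below was not tested.

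The members carried macrophage markers, of which the C1q genes, Csf1r and Adgre1 were also used to choose them. Several genes known from resident macrophages were low. Others of the resident-type list were not, with Selenop at 430, 1086, 665.9 and 713.6 CPM and Pf4 at 254.7, 1057, 798.3 and 433.8 CPM. Levels are CPM over the summed UMIs of the members, and since the assay counts 1 end of each transcript, levels of different genes do not scale with transcript length. C1qa stood at 1920, 2765, 2862 and 1587 CPM, C1qb at 1862, 2635, 2906 and 1560 CPM and C1qc at 1117, 1608, 1685 and 992.4 CPM. All 3 chains were highest in D-CAN, next highest in Pdgfrb-TK/PBS and lowest in WT/PBS. Csf1r, the receptor for the macrophage growth factors CSF1 and IL-34, was at 267.5, 400.6, 442.9 and 247.1 CPM, and Adgre1, which encodes F4/80, at 136.1, 157.0, 253.6 and 106.5 CPM. Apoe, a lipid carrier, was at 13910, 17310, 15190 and 15430 CPM. It was the second most abundant transcript by mean level, with mitochondrial and most ribosomal protein genes left out of the ranking.

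Of the resident-type genes, the mannose receptor Mrc1 was the best detected at 679.3, 1344, 668.7 and 887.8 CPM. After each cell was thinned to 2000 UMIs, Mrc1 was detected in 62.7%, 77.8%, 61.5% and 70.7% of members (84.8%, 86.6%, 77.2% and 91.3% without thinning) and in no more than 1.90% of epithelial cells thinned alike. Folr2, a folate receptor of resident macrophages, was at 30, 110.7, 56.9 and 64.6 CPM and in 3.18%, 14.9%, 6.98% and 9.27% of thinned members. Lyve1, a hyaluronan receptor of perivascular macrophages, was at 16.2, 80.5, 22.9 and 34.9 CPM. Timd4, a phosphatidylserine receptor typical of embryonically seeded macrophages, was found in 0, 1, 1 and 2 thinned members, and Cd209f was at 0, 1.01, 0 and 1.06 CPM. The scavenger receptor of hemoglobin, Cd163, was at 21.6, 97.6, 7.73 and 43.2 CPM, and the complement receptor Vsig4 at 25.02, 72.5, 0.309 and 10.4 CPM. Leaving aside Timd4 and Cd209f, whose few counts give no order, Pdgfrb-TK/PBS was thus highest for each of these. Since Timd4 and Cd209f were hardly detected at this depth, which does not bound the share of cells that express them, the cells are called C1q macrophages here. The classical monocyte gene Ly6c2 was near 0 as well, at 1.24, 1.01, 8.66 and 0.425 CPM, while Ccr2, the receptor by which monocytes enter tissues, reached 160.1, 230.5, 251.1 and 36.8 CPM.

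**Figure D1:**
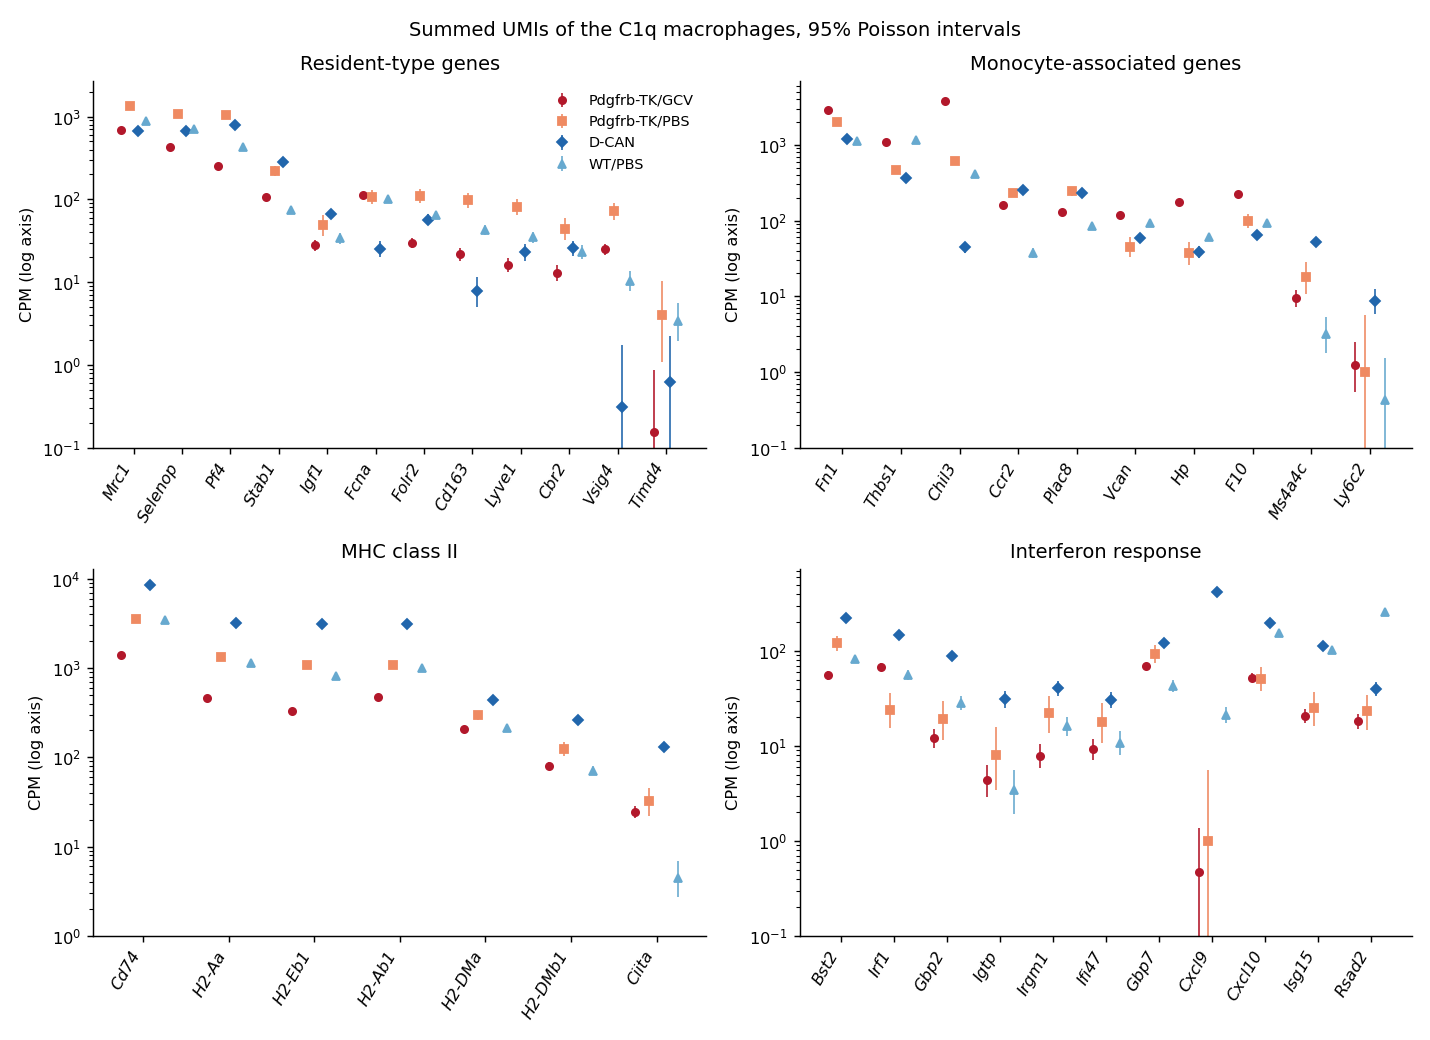
Level of 4 gene groups in the C1q macrophages of each library, in CPM on a log axis, with points for the summed UMIs and bars for exact 95% Poisson intervals, cut where they pass the lower axis limit. The Pdgfrb-TK/PBS members are highest for most resident-type genes, Chil3 is highest in Pdgfrb-TK/GCV, and the MHC class II genes and Cxcl9 are highest in D-CAN.

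Around the limit of 5 C1q UMIs the cells did not fall into separate groups by C1q. Cells with 3 or 4 C1q UMIs, just outside, numbered 110, 42, 40 and 40, and cells with 5 or 6, just inside, 106, 33, 39 and 35. Apoe stood at 2524, 5517, 3467 and 3314 CPM just outside the limit and at 4829, 10135, 4862 and 3800 CPM just inside. It was lower at 0 C1q UMIs, at 1052, 2218, 2283 and 863.1 CPM, so that Apoe was higher inside than outside the limit in each library. The members had a median of 22, 21.5, 33 and 27.5 C1q UMIs and at most 333, 180, 266 and 166. On the Mmp12 side, cells with 3 or 4 Mmp12 UMIs and at least 5 C1q UMIs, just outside, had Apoe at 16870, 10517, 21607 and 10224 CPM, and members with 1 or 2 Mmp12 UMIs had 14698, 12763, 11507 and 12430 CPM.

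**Figure D2:**
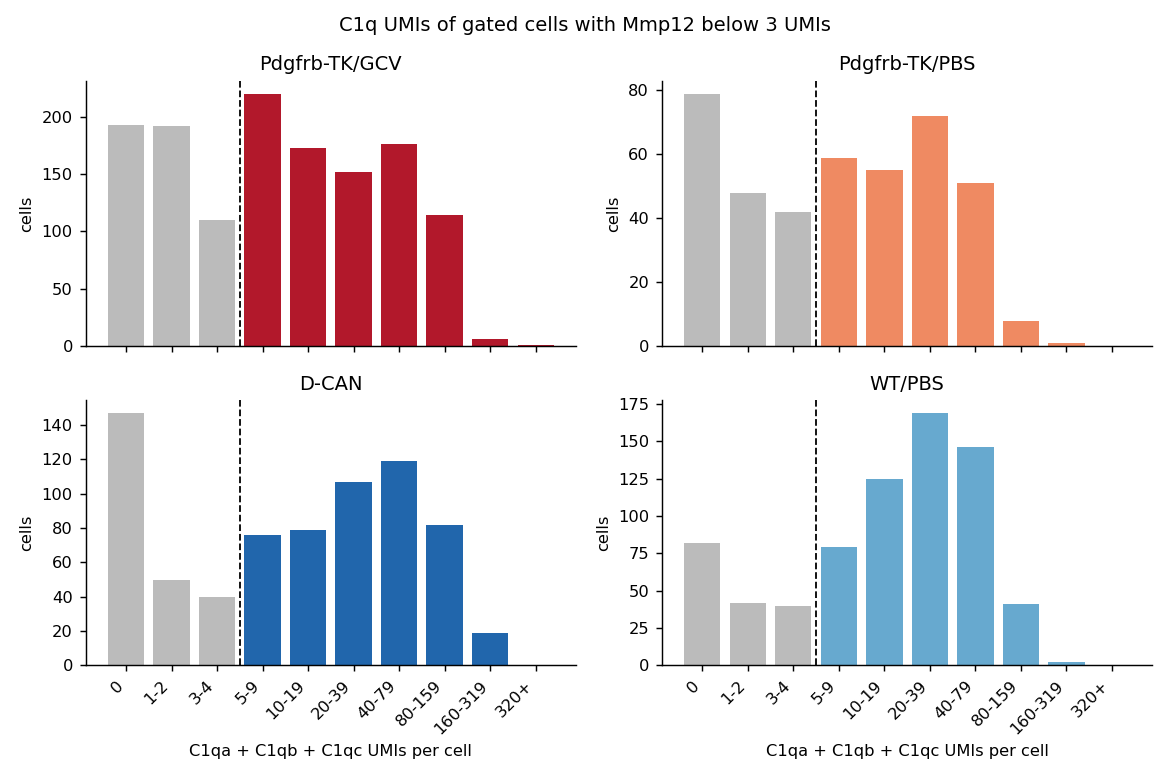
Number of gated cells with fewer than 3 Mmp12 UMIs by their summed C1qa, C1qb and C1qc UMIs, in 4 panels for the 4 libraries. The dashed line is the limit of 5 UMIs, grey bars left of it are the C1q-low cells and colored bars the members, and no gap is seen at the line.

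Against the C1q-low cells of the same library, the members stood higher in Apoe, Selenop, Mrc1 and Stab1. Because the rule split these cells by C1q, the comparison is a description. Of 10743 genes with at least 100 UMIs, 58 (0.540%) were at least 2-fold higher in the members of all 4 libraries and 13 (0.121%) at least 2-fold lower. With any 1 library left out, 78 to 84 of 9110 to 10554 genes were higher and 20 to 91 lower, the last without WT/PBS. Apoe was higher by 3.11, 2.42, 2.90 and 3.35 on the log2 scale, with 1 CPM added to both sides. Selenop, a selenium transport protein, was higher by 1.85, 2.28, 2.06 and 2.76, Mrc1 by 1.99, 1.45, 1.86 and 2.38, and the scavenger receptor Stab1 by 1.58, 1.51, 2.07 and 2.99. The platelet factor Pf4, Aif1 (IBA1), the neonatal Fc receptor Fcgrt, the lysosomal protease Lgmn, the leukotriene synthase Ltc4s, Tmem37, Tanc2 and the transcription factor Maf followed among the 15 genes with the most even excess. Maf was higher by 1.21, 1.60, 1.28 and 2.15. Among the 15 genes with the most even deficit were Plac8, a gene of monocytes and of the tumor cells, lower by -1.42, -1.42, -2.02 and -1.69, the proteoglycan Vcan, the calcium-binding genes S100a4 and S100a11, the lectin Clec4e, the activin subunit Inhba, the iron-binding lipocalin Lcn2, and the matrix and epithelial genes Mgp, Col4a1, Col4a2, Igfbp7, Tm4sf1 and Wfdc2. The signaling genes Tnfrsf12a and Plcb1 completed that set. The epithelial sum was also higher in the C1q-low cells than in the members, at 1816, 2033, 869.5 and 1129 CPM.

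By list, 9 of the 15 tested resident-type genes were at least 2-fold higher than in C1q-low cells in all 4 libraries, with a median log2 ratio of 2.17. The median over all genes tested was -0.04. The same count was 2 of 21 for the lysosome, 4 of 15 for efferocytosis and scavenger receptors and 4 of 7 for the M2 genes, and 2 of 12 monocyte genes were lower in all 4 libraries. MHC class II genes gave 0 of 8 in either direction, with a median of 0.94. H2-Aa was higher in the members by 0.93, 1.11, 0.70 and 1.26, close to the 2-fold line of 1 throughout.

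Against the Mmp12 cells, the members differed in fewer genes, 12 (0.112%) at least 2-fold higher and 20 (0.187%) at least 2-fold lower in all 4 libraries out of 10698. The resident-type list again held the most, with 7 of 15 genes higher and a median of 1.69. Folr2 was higher in the members by 1.39, 1.98, 1.31 and 2.16, Selenop by 1.18, 1.82, 1.14 and 1.43 and the transglutaminase F13a1 by 1.82, 1.99, 2.37 and 2.22. Lyve1 and Cd163 were at 0.875, 0, 0, 0.914 CPM and at 1.17, 0, 0, 4.57 CPM in the Mmp12 cells, far under their levels in the members. The integrin Itgax (CD11c) was lower in the members by -1.61, -1.58, -1.53 and -1.37, and the chemokine Ccl17 by -4.55, -7.31, -5.05 and -2.85. The C1q chains themselves differed from the Mmp12 cells by at most 0.80 on the log2 scale in any library, and lysosomal genes were even too (median 0.01 over 21 genes).

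Among the members of each library, several genes differed with C1q in a graded way. The members were split into 3 equal parts by C1q UMIs per 10000 UMIs, and the lowest and highest parts were set side by side. Apoe went from 4329 to 29240 CPM in Pdgfrb-TK/GCV, from 6925 to 27810 CPM in Pdgfrb-TK/PBS, from 5032 to 28610 CPM for D-CAN and from 5835 to 27160 CPM for WT/PBS, and the highest parts of the 4 libraries lay between 27160 and 29240 CPM. Csf1r was higher in the highest part by 2.12-fold, 2.03-fold, 2.40-fold and 2.75-fold. The cathepsin Ctsb was higher by 2.40-fold, 2.33-fold, 2.52-fold and 2.41-fold, the lipid sensor Trem2 by 2.77-fold, 2.48-fold, 3.93-fold and 3.43-fold, and the membrane protein Ms4a7 by 11.6-fold, 5.17-fold, 6.44-fold and 3.70-fold. Summed over the 21 lysosome genes, levels went from 10170 to 18120, 9772 to 19730, 9403 to 17980 and 10550 to 19520 CPM. The MHC class II sum went from 1019 to 6197, 3423 to 10810, 9809 to 29100 and 4193 to 9378 CPM, so that the order of libraries for MHC class II was the same in the lowest and the highest part, except that Pdgfrb-TK/PBS and WT/PBS changed places.

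Other genes were lower where C1q was high. The neutrophil chemokine Cxcl2 was at 2034 CPM in the lowest and 583.9 CPM in the highest part of Pdgfrb-TK/GCV, at 531.9 and 292.4 CPM in Pdgfrb-TK/PBS, at 2277 and 871.3 CPM for D-CAN and at 5191 and 950.8 CPM for WT/PBS. The chitinase-like gene Chil3, fibronectin (Fn1) and thrombospondin (Thbs1) were lower in the highest part of every library too. The epithelial sum was lower along the same axis, from 1290 to 385.8, 3364 to 566.8, 1437 to 148.8 and 1083 to 480.3 CPM, so the lowest part held the most epithelial RNA, and its part in the gradients was not tested.

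**Figure D3:**
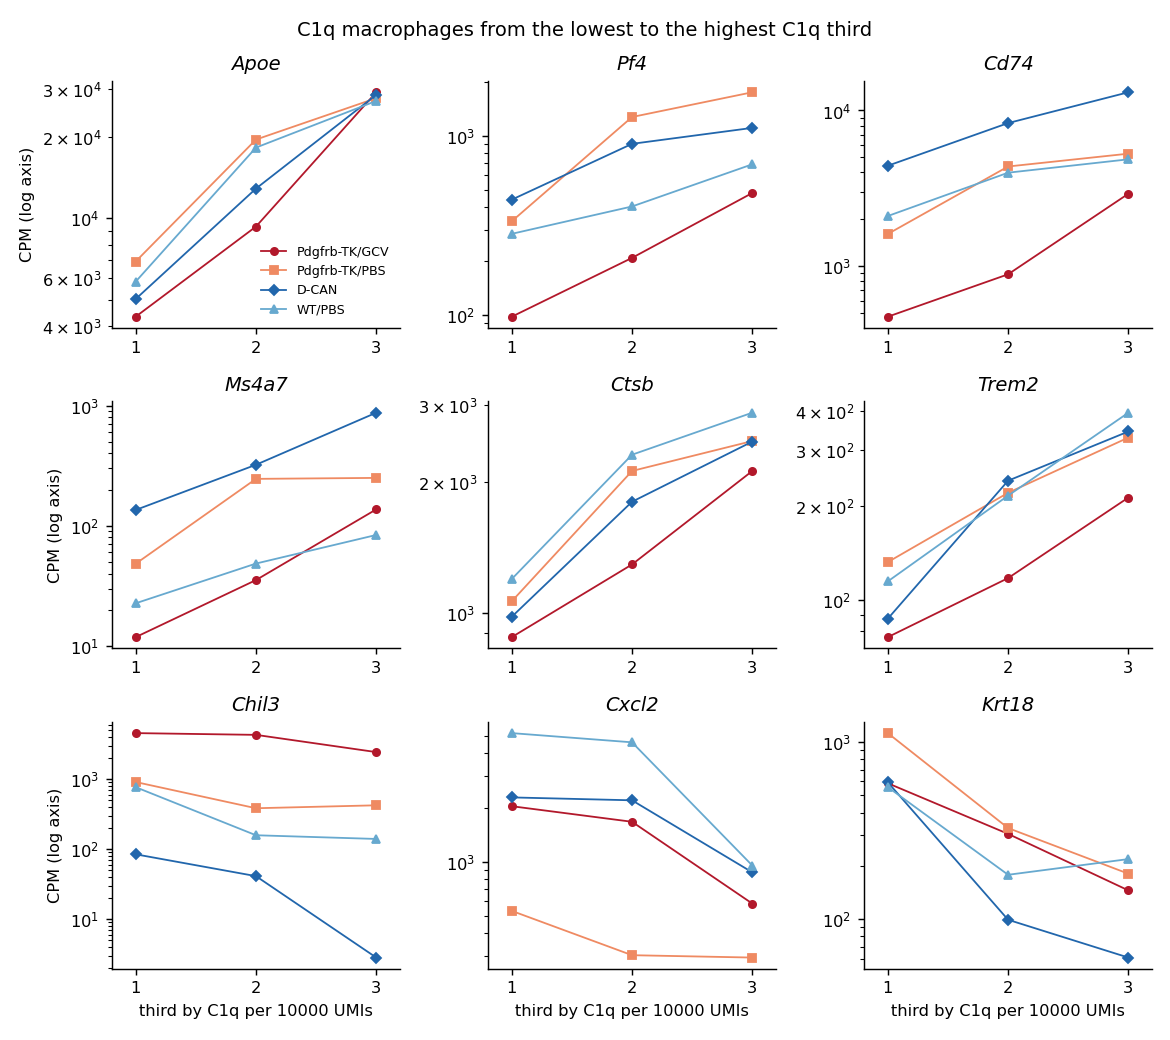
Level of 9 genes in CPM on log axes, over 3 equal parts of the members of each library from low (1) to high (3) C1q UMIs per 10000 UMIs, with 1 line per library. Apoe, Pf4, Cd74, Ms4a7, Ctsb and Trem2 are higher and Cxcl2, Chil3 and the epithelial Krt18 lower in the highest than in the lowest part in all 4 libraries.

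Within thinned members, the monocyte chemokine Ccl8 went with Mrc1, being detected in 6.82%, 21.2%, 28.2% and 34.4% of members with Mrc1 and in 1.31%, 11.6%, 19.3% and 18.6% of those without. Members with at least 2 of 6 cell cycle genes made up 9.29%, 11.3%, 6.98% and 2.73% of thinned members, and 14.98%, 9.68%, 15.4% and 9.65% of thinned epithelial cells, whose free RNA can add to these counts. Without thinning the members' shares were 19.2%, 13.8%, 11.6% and 11.4%.

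Under the rule, the share of C1q macrophages was highest in Pdgfrb-TK/GCV and lowest in Pdgfrb-TK/PBS. The share of all cells was 6.86% (6.42% to 7.32%) in the GCV library and 2.35% (2.07% to 2.66%) in its PBS library. The wild-type tumors stood between these values, at 4.74% (4.33% to 5.17%) after D-CAN and 4.83% (4.45% to 5.24%) after PBS. The GCV share was 2.92 times that of its PBS library (2.53 to 3.38), and 1.42 times that of WT/PBS. The D-CAN share was 0.980 times that of WT/PBS (0.866 to 1.11), an interval that includes 1, but 1.47 times (1.28 to 1.69) after thinning every cell to 2000 UMIs and 2.02 times (1.72 to 2.36) that of Pdgfrb-TK/PBS. The PBS libraries differed from each other as well, with Pdgfrb-TK/PBS at 0.486 times WT/PBS (0.417 to 0.566). With fewer than 2 epithelial genes allowed per cell, the 4 shares were 2.57%, 1.14%, 3.65% and 1.96%, so that D-CAN was then highest.

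Within the gated macrophages the share of members differed less, at 47.9%, 50.7%, 52.2% and 59.7%. Its ratio was 0.944 (0.818 to 1.09) for GCV and 0.873 (0.772 to 0.988) for D-CAN. The gated macrophages as a whole made up 14.3%, 4.63%, 9.08% and 8.09% of cells. The C1q-low cells were 2.497 times (2.09 to 2.99) and the Mmp12 cells 5.13 times (3.97 to 6.70) as frequent among all cells in Pdgfrb-TK/GCV as in Pdgfrb-TK/PBS. For D-CAN against WT/PBS the C1q-low cells were 1.65 times (1.35 to 2.03) and the Mmp12 cells 1.09 times (0.895 to 1.33) as frequent. With fewer than 2 epithelial genes allowed per cell the ratio of the members' shares was 2.26 for GCV and 1.86 for D-CAN, and without members carrying genes of another host cell type it was 1.34 for D-CAN, so the D-CAN value rests on how such cells are treated.

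**Figure D4:**
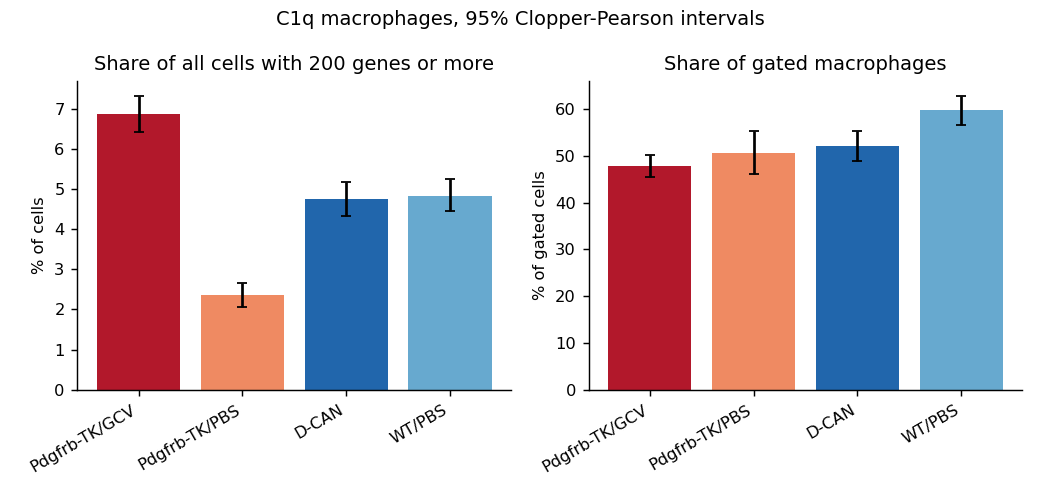
Share of C1q macrophages among all cells with at least 200 genes and among gated macrophages, in percent, with bars from 0 and exact 95% Clopper-Pearson intervals, for each of the 4 libraries. Pdgfrb-TK/GCV stands highest (6.86%) and Pdgfrb-TK/PBS lowest (2.35%) among all cells, while the shares of the gate lie between 47.9% and 59.7%.

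In the Pdgfrb-TK mice, the C1q macrophages of the GCV library held less MHC class II and less resident-type transcript and more Chil3, glycolytic and inflammatory transcript than those of the PBS library. Of 7688 genes with at least 100 UMIs over both libraries, 453 (5.89%) were at least 2-fold higher and 131 (1.70%) at least 2-fold lower with GCV, 7.60% together. Against WT/PBS, 750 of 8720 genes were higher and 435 lower, of which 101 and 31 were shared. The median log2 ratio of all genes was -0.03, and 0.11 against WT/PBS. Folds are ratios of CPM, and log2 ratios have 1 CPM added. The epithelial sum was lower in the GCV members (829.8 against 1752 CPM), and the stress list below was higher.

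All 7 tested MHC class II genes were lower with GCV, and 4 of them at least 2-fold, with a median log2 ratio of -1.17. These genes encode the chains that present peptides to CD4 T cells and their chaperones. Summed over the list, MHC class II was at 2985 CPM with GCV and 7520 CPM with PBS in the members. In the other gated cells it was lower as well, at 1470 and 3513 CPM (C1q-low) and 7118 and 11040 CPM (Mmp12). Outside the macrophage gate it was higher with GCV, at 365.1 and 176.4 CPM. H2-Aa was at 463.5 CPM with GCV and 1320 CPM with PBS, a ratio of 0.351 (0.329 to 0.375). H2-Eb1 was at 327.5 and 1071 CPM, a ratio of 0.306 (0.284 to 0.329), and the invariant chain Cd74 at 1390 and 3579 CPM, a ratio of 0.388 (0.374 to 0.404). The peptide loading gene H2-DMa differed less, at 207.3 and 297.0 CPM, and the master regulator Ciita had a ratio of 0.757 whose interval (0.515 to 1.15) includes 1. The GCV library was the lowest of all 4 for H2-Aa and Cd74, and against WT/PBS the median of the list was -1.06, with 4 of 7 genes lower and 1 higher. The higher one was Ciita, at 24.4 CPM with GCV and 4.46 CPM in WT/PBS. After thinning, H2-Aa was detected in 30.8% of GCV members and 53.1% of PBS members (41.9% and 57.7% without thinning), and in 2.30% and 0.967% of epithelial cells.

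Of the 14 resident-type genes tested, 9 were at least 2-fold lower with GCV and 0 were higher, with a median of -1.26. The list summed to 2314 CPM with GCV and 5032 CPM with PBS in the members. It was also lower in C1q-low cells (760.5 and 1277 CPM), in Mmp12 cells (1401 and 2583 CPM) and outside the gate (215.7 and 370.2 CPM). Pf4 was at 254.7 CPM with GCV and 1057 CPM with PBS, a ratio of 0.241 (0.223 to 0.261). Lyve1 had a ratio of 0.201 (0.148 to 0.272), Cd163 of 0.221 (0.170 to 0.290), Folr2 of 0.271 (0.213 to 0.346), Selenop of 0.396 (0.369 to 0.425) and Mrc1 of 0.505 (0.475 to 0.538). The size of this difference depends on the control, since against WT/PBS 2 of 15 genes were at least 2-fold higher and 3 lower, with a median of -0.39. With fewer than 2 epithelial genes allowed per cell, which left 315 and 119 members and 9 tested genes, 2 were higher and 2 lower, with a median of -0.84. The transcription factor Maf, which restrains macrophage self-renewal, was at 159.3 and 343.3 CPM.

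The largest differences with GCV by the naming rule included several secreted proteins. Ccl8, a ligand for monocyte and T cell chemokine receptors, was at 34.4 CPM with GCV against 569.7, 621.4 and 590.9 CPM in the other libraries, a ratio to its own PBS library of 0.0603 (0.0514 to 0.0706). The GCV library was thus the lowest of the libraries for Ccl8 by a wide margin. Ccl12 was at 65.0 and 291.9 CPM, a ratio of 0.223 (0.191 to 0.259), but was 39.6 CPM in WT/PBS, so that its direction turns with the control. Retnla, an alternative activation gene, was at 2.80 and 351.3 CPM, and 287 of its UMIs in Pdgfrb-TK/PBS, or 82.2%, were in 1 cell. The lectins Clec4a1 and Clec10a were at 8.39 and 66.4 CPM and at 20.98 and 106.7 CPM. WT/PBS had Clec4a1 at 7.02 CPM, so that its lower level with GCV was not seen against that control. Lyve1, Cd163, the interferon-inducible Ifi27l2a and Slfn5, and the Fc receptor-like Fcrls completed the 10 lowest.

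The 10 highest with GCV were Lcn2, Nos2, Plet1, Lsmem1, Ackr3, Hsph1, Gpat3, Gm14636, Chil3 and Gm15283. Chil3 was at 3783 CPM with GCV and at 604.0, 44.2 and 415.3 CPM in the other libraries, 6.26 times its own PBS library (5.78 to 6.80), and was detected in 66.4% and 21.6% of thinned members (78.3% and 22.4% without thinning). It was also found in 8.22% of thinned epithelial cells with GCV and 0.622% with PBS. The scavenging chemokine receptor Ackr3 was at 141.3 and 15.1 CPM, 9.36 times (5.64 to 16.8), and the triglyceride synthesis enzyme Gpat3 at 96.4 and 12.1 CPM, 7.98 times (4.53 to 15.5). Nos2, the inducible nitric oxide synthase, was at 59.4 and 4.03 CPM, 14.7 times (5.71 to 54.4), and the heat shock gene Hsph1 at 274.9 and 33.2 CPM. Both were higher still in WT/PBS, at 67.4 and 464.0 CPM, and so turned with the control. Against WT/PBS the log2 ratio was 0.33 for Plet1, 0.30 for Gm15283 and 0.88 for Gm14636, all under 2-fold, and 1.99 for Lsmem1, 2.51 for Ackr3, 1.86 for Gpat3 and 3.18 for Chil3. Lcn2 rested on 2 UMIs in Pdgfrb-TK/PBS and had a ratio of 27.1 (7.45 to 225), while its log2 ratio against WT/PBS was 1.265.

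Of the 9 monocyte genes tested, 6 were at least 2-fold higher with GCV and 0 lower, with a median of 1.22 (1.32 against WT/PBS). With fewer than 2 epithelial genes allowed per cell, 3 of 8 were higher and 1 lower, with a median of 0.65. Haptoglobin (Hp) was at 173.0 and 37.3 CPM, 4.64 times (3.35 to 6.63), Vcan 2.61 times (1.94 to 3.62) and Thbs1 2.34 times (2.13 to 2.57) its PBS level. Vcan was at 118.4 CPM with GCV and 92.5 CPM in WT/PBS, under 2-fold apart. Over the 3 parts by C1q, Thbs1 was at 1223, 1384 and 659.3 CPM with GCV and 1325, 1527 and 570.9 CPM in WT/PBS. Of the genes best known from circulating monocytes, Ly6c2 was near 0 in both libraries, and Ccr2 had a ratio of 0.695 (0.601 to 0.805) but was at 160.1 CPM with GCV against 36.8 CPM in WT/PBS, so that its direction turns with the control. Of 19 hypoxia and glycolysis genes, 8 were at least 2-fold higher and 0 lower, with a median of 0.95 (0.84 against WT/PBS). The glucose transporter Slc2a1 was at 248.4 and 59.4 CPM, 4.18 times (3.23 to 5.52), the hexokinase Hk2 at 342.2 and 93.6 CPM, 3.66 times (2.97 to 4.55), and the hypoxia-inducible hydroxylase Egln3 at 158.7 and 36.2 CPM, 4.38 times (3.14 to 6.29). Outside the macrophage gate Slc2a1 was at 113 and 65.1 CPM, so other cells of the GCV library were higher as well.

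Most inflammatory genes were higher with GCV than in its own PBS library, and this turned with the control. Of 11 inflammatory cytokine and NF-kB genes, 9 were at least 2-fold higher and 0 lower, with a median of 1.30, while against WT/PBS 2 of 12 were higher and 3 lower, with a median of -0.35. The prostaglandin synthase Ptgs2 was at 254.1 and 46.3 CPM, Il6 at 115.9 and 29.2 CPM and Il1b at 426.3 and 173.1 CPM, while WT/PBS had 600.1, 84.4 and 1360 CPM. The dissociation stress list of immediate early and heat shock genes, read out here as a sign of handling, showed the same turn, with 11 of 18 genes higher, a median of 1.24 and -0.64 against WT/PBS. Hspa1a, which shares reads with its near copy Hspa1b, was at 444.5, 90.6, 1231 and 1807 CPM. By these medians the Pdgfrb-TK/PBS members lay under both Pdgfrb-TK/GCV and WT/PBS for both lists, and the part of handling in the inflammatory values was not tested.

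All 6 tested M1 genes were above their Pdgfrb-TK/PBS level with GCV, 3 of them at least 2-fold, with a median of 0.99, but against WT/PBS 0 of 7 were 2-fold higher and 3 lower, with a median of -0.73. Of 7 M2 genes, 2 were at least 2-fold higher and 3 lower with GCV. Lysosome genes (0 of 21 in either direction, median -0.06) and cell cycle genes (0 of 19, median -0.29) had no member past 2-fold. Of 17 chemokine genes, 5 were higher and 4 lower, with a median of 0.25. Against WT/PBS, 12 of 19 cell cycle genes were higher and 0 lower (median 1.23), and 1 of 19 chemokine genes was higher and 13 lower (median -1.63), so both medians turned with the control.

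In the wild-type mice, the C1q macrophages of the D-CAN library held more MHC class II, MHC class I and interferon response transcript and less Hmox1, Mt2 and Cxcl3 transcript than those of WT/PBS. Of 7697 genes, 734 (9.54%) were at least 2-fold higher and 392 (5.09%) at least 2-fold lower, 14.6% together. With median-of-ratios scaling 548 were higher and 515 lower, and against Pdgfrb-TK/PBS 408 of 5961 genes were higher and 94 lower. The median log2 ratio of all genes was 0.13 (0.07 against Pdgfrb-TK/PBS), so that values below are to be read against this shift.

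All 7 tested MHC class II genes were at least 2-fold higher with D-CAN, with a median of 1.65 (1.26 against Pdgfrb-TK/PBS). Other cells of the D-CAN library were higher as well. Summed over the list, MHC class II was at 18670 and 6667 CPM in the members and 12740 and 2698 CPM in C1q-low cells. It was at 23710 and 9655 CPM in Mmp12 cells and at 559 and 154.2 CPM outside the macrophage gate. H2-Aa was at 3166 CPM with D-CAN and 1154 CPM with PBS, 2.74 times (2.65 to 2.84), H2-Eb1 at 3081 and 808.7 CPM, 3.81 times (3.67 to 3.96), and Cd74 at 8451 and 3416 CPM, 2.47 times (2.43 to 2.52). Ciita was at 130.2 and 4.46 CPM, 29.2 times (18.8 to 47.6). The WT/PBS level of Ciita was the lowest of all 4, and against the 32.2 CPM of Pdgfrb-TK/PBS the log2 ratio was 1.98. H2-Aa was detected in 83.8% of thinned D-CAN members and 53.6% of thinned WT/PBS members (88.6% and 65.3% without thinning), and in 3.02% and 0.774% of epithelial cells. The 8 dendritic cell genes, which share MHC class II with macrophages, summed to 71.5 and 34.0 CPM, and the B cell genes to 91.9 and 21.5 CPM.

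Of 14 MHC class I genes, 8 were at least 2-fold higher with D-CAN and 0 lower, with a median of 1.03. The immunoproteasome subunit Psmb9 was at 123.4 and 23.4 CPM, 5.28 times (4.26 to 6.58), and the peptide transporter Tap1 at 70.2 and 24.2 CPM, 2.90 times (2.30 to 3.66). B2m, the light chain of class I molecules, was at 2484 and 1318 CPM, 1.89 times (1.82 to 1.95). The list summed to 5729 and 3136 CPM in the members and to 2505 and 611.6 CPM in the cells outside the macrophage gate, which therefore differed by a larger factor than the members.

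Of 20 interferon response genes, 11 were at least 2-fold higher and 3 lower, with a median of 1.19. The T cell chemokine Cxcl9 was at 422.8 CPM with D-CAN and at 21.3 CPM in WT/PBS and 0.466 and 1.01 CPM in the GCV and PBS libraries of the Pdgfrb-TK mice, and 67% of the WT/PBS UMIs were in 1 cell. It was 19.9 times higher than WT/PBS (16.2 to 24.6). The GTPases Igtp and Iigp1 were at 30.9 and 3.40 CPM and at 144.1 and 5.53 CPM. The 3 that were lower were Rsad2 (39.9 and 257.5 CPM), Ifit1 (12.99 and 59.8 CPM) and Ifit2 (15.8 and 56.1 CPM), genes known best from the type I interferon response, and they were high in WT/PBS alone. Cells outside the macrophage gate of the D-CAN library had Iigp1 at 137 CPM against 3.53 CPM with PBS, so Iigp1 was higher in other cells of that library as well.

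The other genes highest with D-CAN were Abcg3, Bank1, Lst1, Nxpe5, Cd72, Dnase1l3 and Gm5150, beside Ciita, Iigp1 and Cxcl9. Lst1, a myeloid membrane protein, was at 309.9 and 16.6 CPM, 18.7 times (14.8 to 23.8), and Cd72, an inhibitory coreceptor of B cells and macrophages, at 120.9 and 6.59 CPM. Abcg3, a membrane transporter, was at 88.1 CPM with D-CAN and 80.5 CPM in Pdgfrb-TK/PBS against 2.98 CPM in WT/PBS, so that WT/PBS was the library that stood apart. Against Pdgfrb-TK/PBS the log2 ratio was 1.39 for Lst1, 1.49 for Cd72, 1.17 for Bank1, 0.60 for Nxpe5 and 0.56 for Gm5150, while it was 4.37 for Iigp1, 7.72 for Cxcl9 and 3.22 for Dnase1l3. Ccr2 was at 251.1 and 36.8 CPM, 6.83 times (5.79 to 8.09), and WT/PBS was again the low library of the 4. The Fc receptors Fcgr4 and Fcgr1 were 5.56 times (4.71 to 6.59) and 3.78 times (3.26 to 4.40) higher, 2 of 6 in their list past 2-fold, whereas 0 of 6 were against Pdgfrb-TK/PBS. Of 13 complement genes, 3 of them the C1q genes of the rule, 5 others were higher and 0 lower (2 and 1 against Pdgfrb-TK/PBS), among them C3 at 298.2 and 83.4 CPM, of which 32% of the D-CAN UMIs were in 1 cell. C1qa itself, which chose the cells, was 1.80 times higher (1.75 to 1.86).

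Lower with D-CAN than in WT/PBS were Gm15726, Serpinb2, Plet1, Gpnmb, Pgf, Chil3, Ankrd33b, Mt2, Slpi and Rsad2. Chil3 was at 44.2 and 415.3 CPM, a ratio of 0.106 (0.0892 to 0.126), the lowest of all 4 libraries. Gpnmb, a glycoprotein of lipid-laden macrophages, was at 11.1 and 148.8 CPM, a ratio of 0.0748 (0.0520 to 0.105), and the metallothionein Mt2 at 86.3 and 600.5 CPM. Heme oxygenase (Hmox1) was at 229.5 and 1113 CPM, a ratio of 0.206 (0.191 to 0.223), and the ferritin heavy chain Fth1 at 7088 and 16530 CPM. Both stood near Pdgfrb-TK/PBS, which had 240.6 and 6767 CPM, so that WT/PBS was the library that stood apart. Gm15726 (6.5 and 4.03 CPM), Ankrd33b (21.3 and 13.1 CPM) and Rsad2 (39.9 and 23.15 CPM) stood higher with D-CAN than in Pdgfrb-TK/PBS. Of these, Gm15726 rested on 21 and 4 UMIs and Ankrd33b on 69 and 13 UMIs. The intervals of their levels overlapped, so their direction against Pdgfrb-TK/PBS is open. Of 16 lipid-associated genes 5 were lower and 0 higher, with a median of -0.76. The fatty acid binding protein Fabp4 was at 6.50 and 82.5 CPM, a ratio of 0.0787 (0.0482 to 0.122), whereas Trem2 was at 218.1 and 222.6 CPM.

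Chemokines and cytokines were mixed. Of 19 chemokine genes, 3 were at least 2-fold higher with D-CAN and 7 lower (median -0.43), but against Pdgfrb-TK/PBS 8 of 18 were higher and 1 lower (median 0.68). Cxcl3 was at 139.2 and 649.8 CPM, a ratio of 0.214 (0.194 to 0.236), Ccl3 had a ratio of 0.236 (0.210 to 0.265) and Ccl4 of 0.307 (0.288 to 0.327), whereas Ccl12 was at 362.8 and 39.6 CPM, 9.17 times (7.85 to 10.8). Pdgfrb-TK/PBS had Ccl12 at 291.9 CPM, less than 2-fold under D-CAN. Ccl8 had a ratio of 1.05 whose interval (0.992 to 1.11) includes 1. The anti-inflammatory cytokine Il10 was at 23.5 and 148.4 CPM, a ratio of 0.158 (0.123 to 0.201), and the interleukin-1 antagonist Il1rn at 118.8 and 483.5 CPM. Cell cycle genes gave 6 of 16 higher and 0 lower, with Top2a at 77.9 and 23.8 CPM and 25% of its D-CAN UMIs in 1 cell. The median of that list was 0.87, but against Pdgfrb-TK/PBS 0 of 12 were higher and 1 lower, with a median of -0.55. The resident-type list had 1 of 13 higher and 2 lower, with a median of -0.11, but 0 of 12 higher and 5 lower against Pdgfrb-TK/PBS (median -0.86). Stab1 was 3.85 times its WT/PBS level (3.40 to 4.37), while Fcna, at 25.4 and 101.6 CPM, and Cd163, at 7.73 and 43.2 CPM, were lower. Stab1 was at 285.2 CPM with D-CAN and 220.5 CPM in Pdgfrb-TK/PBS, under 2-fold apart.

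The members of the Pdgfrb-TK and wild-type PBS libraries differed in a larger share of tested genes than either treated library did from its control. Of 6492 genes, 472 (7.27%) were at least 2-fold higher and 720 (11.1%) at least 2-fold lower in Pdgfrb-TK/PBS than in WT/PBS, 18.4% together, with a median log2 ratio of 0.05 over all genes. All 10 tested inflammatory genes were at least 2-fold lower in Pdgfrb-TK/PBS (median -2.07), as were 12 of 18 stress genes (median -1.60). Of 12 cell cycle genes 9 were higher (median 1.34), and of 13 resident-type genes 6 (median 0.91). MHC class II genes had 0 of 6 past 2-fold in either direction, with a median of 0.30. Their regulator Ciita had too few UMIs to be tested in this pair. It was at 32.2 CPM in Pdgfrb-TK/PBS and 4.465 CPM in WT/PBS, 7.21 times (4.03 to 13.2). Genotype and library cannot be told apart in this pair, and the Pdgfrb-TK/PBS members were also the shallowest. GCV and D-CAN were set against different PBS libraries. MHC class II, whose 6 tested genes were close in both PBS libraries, gave the same direction of its median with either control. The medians of the inflammatory, stress, chemokine and cell cycle lists turned with the control for GCV and for D-CAN.

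**Figure D5:**
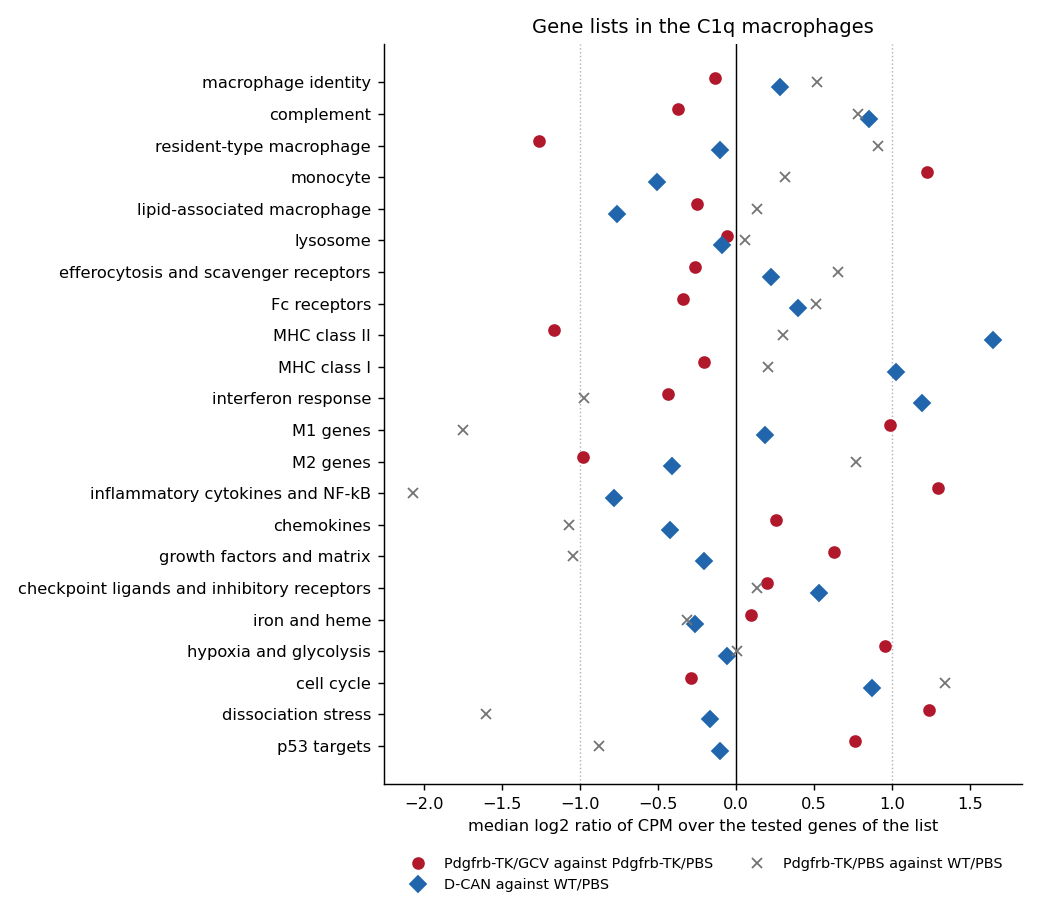
Median log2 ratio of CPM over the tested genes of 22 lists in the C1q macrophages, with red circles for Pdgfrb-TK/GCV against Pdgfrb-TK/PBS, blue diamonds for D-CAN against WT/PBS and grey crosses for Pdgfrb-TK/PBS against WT/PBS. Dotted lines mark 2-fold, and the MHC class II list stands at -1.17 for GCV and 1.65 for D-CAN with the PBS libraries 0.30 apart.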

How the data were processed

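Droplet 3′ scRNA-seq counts of 4 libraries were analysed. The values the authors deposited are counts, as UMIs per gene and cell without normalization, after their software had called cells. Their processing notes name Cell Ranger with STAR 2.6 and mm10, the matrix headers name Cell Ranger 7.0.0, and the study's methods name another version. Cells with fewer than 200 genes were removed (0, 26, 608 and 30). The 5 further features, GFP and Tdtomato among them, were kept out of totals. No column of per-sample values was left unused.

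UMIs of the members were summed per library and scaled to CPM. Levels have exact Poisson, shares Clopper-Pearson and ratios conditional binomial intervals at 95%. Log2 ratios had 1 CPM added, genes needed 100 UMIs over both groups, and a 2-fold difference was counted. GCV was compared with Pdgfrb-TK/PBS and D-CAN with WT/PBS. For shares of cells with a UMI, cells were thinned to 2000 UMIs, leaving out 24, 52, 38 and 12 members. Epithelial cells shown beside them had at least 4 of 7 epithelial and fewer than 3 of 6 macrophage genes. The ratio calls were tested on simulated data. No doublet caller was run and doublets were kept, and an alternative removed members above the 95th percentile of UMIs.

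Named were the 10 highest and 10 lowest genes per treatment with at least 50 CPM in the higher library and a level there no lower than outside the gate, the 15 genes most above and the 15 most below C1q-low cells by the library nearest to 0, and genes of 34 lists, 12 of them for other cell types. Some genes of these lists count in them but are not reported here. The members, lists and rules were chosen with earlier results of these data known. Alternatives changed the limits of the rule, control, scaling, pseudocount and filters. Those for the comparison with other gated cells were added after the data were seen. Python 3.11.15, NumPy 2.4.6, SciPy 1.17.1, pandas 2.3.3 and Matplotlib 3.10.9 were used. Coordinates are from GENCODE M21.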

Additional observations from a re-analysis of the deposited data

Results flagged for a closer look

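The D-CAN and WT/PBS libraries list features for GFP and Tdtomato that no comparison uses, and the C1q macrophages held UMIs of both. In D-CAN, 91 UMIs of Tdtomato and 91 UMIs of GFPcds were in 15.1% and 13.7% of members, and in WT/PBS 224 and 151 UMIs were in 31.0% and 20.1% of members. Among epithelial cells, Tdtomato had a UMI in 1.02% and 2.44% and GFPcds in 1.24% and 2.84% of cells in the D-CAN and WT/PBS libraries. The other gated macrophages were closer to the members, with Tdtomato in 16.5% and 20.1% of C1q-low cells and in 23.4% and 32.6% of Mmp12 cells, and GFPcds in 11.8% and 15.9% of C1q-low cells and in 15.6% and 22.3% of Mmp12 cells. The labels name no reporter, and the Pdgfrb-TK libraries do not list these features.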

How the results depend on the processing

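No paired analysis was possible because there is 1 library per condition and the groups share only the number 1. Low depth limits Pdgfrb-TK/PBS most, with 246 members. The median of MHC class II kept its direction under every alternative run, from -1.31 to -0.62 for GCV and from 1.26 to 1.69 for D-CAN. The same holds for hypoxia genes with GCV (0.67 to 0.98), MHC class I with D-CAN (0.89 to 1.22) and the interferon list with D-CAN (0.86 to 1.33). The cause of the differences below was not tested.

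The GCV ratio of shares was 2.45 with C1q at 0.1% of UMIs or more, 3.42 with no Mmp12 limit, 2.26 with fewer than 2 epithelial genes, 1.42 against WT/PBS and 0.944 with the gate as denominator. The D-CAN ratio was 1.12 with at most 20% mitochondrial UMIs, 1.86 with fewer than 2 epithelial genes, 1.34 without members carrying genes of another host type, 2.02 against Pdgfrb-TK/PBS and 1.47 after thinning.

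With the other PBS library, a pseudocount of 10 CPM, a minimum of 20 UMIs and a minimum of 1 UMI in turn, genes at least 2-fold higher numbered 750, 279, 995 and 1610 for GCV and 408, 420, 1595 and 2110 for D-CAN, and genes lower 435, 77, 418 and 1131 for GCV and 94, 237, 741 and 1118 for D-CAN. The genes tested numbered 8720, 7688, 11688 and 18891 for GCV and 5961, 7697, 11957 and 19468 for D-CAN, so these counts are over different totals. With fewer than 2 epithelial genes the GCV counts were 272 and 65 of 3702. Of the GCV genes, 101 higher and 31 lower ones were shared between both controls, and of the D-CAN genes 112 and 29.

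Against the other PBS library the resident-type median for GCV was -0.39, and medians turned for GCV in the inflammatory (-0.35), stress (-0.64), M1 (-0.73), chemokine (-1.63), cell cycle (1.23), complement (0.54), efferocytosis (0.44), Fc receptor (0.29), growth factor (-0.07) and iron (-0.61) lists, and for D-CAN in the inflammatory (1.17), stress (1.29), chemokine (0.68), cell cycle (-0.55), growth factor (0.46), p53 (0.89) and efferocytosis (-0.24) lists. So did macrophage identity (0.01) and lysosome genes (0.06) for GCV and hypoxia genes (0.06) for D-CAN. Of the lists for other cell types, epithelial (0.09), mesothelial (0.195), neutrophil (-0.33) and acinar (1.16) medians turned for GCV. For D-CAN the fibroblast (2.41) and neutrophil (0.86) medians turned. Among the named genes recomputed under every alternative, directions turned for GCV in Nos2 (-0.18), Hsph1 (-0.75), Ccl12 (0.70), Hmox1 (-1.53) and Il10 (-2.73), and for D-CAN in Rsad2 (0.76) and Pf4 (-0.40). Against C1q-low cells, genes higher numbered 104 with 0-C1q cells only and 78 to 84 with 1 library left out, and genes lower numbered 20 without the deepest cells and 20 to 91 with 1 library left out (91 without WT/PBS).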

Other observations

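Among 12 checkpoint ligands and inhibitory receptors, 4 of 11 tested genes were at least 2-fold higher in the D-CAN than in the WT/PBS members and 0 were lower, with a median log2 ratio of 0.53, while 1 of 9 was higher against Pdgfrb-TK/PBS (0.50). The inhibitory checkpoint protein Vsir (VISTA) was at 164.9 and 71.0 CPM, 2.32 times (2.02 to 2.67), and Havcr2 (TIM-3) at 39.6 and 18.7 CPM, 2.12 times (1.60 to 2.81). The ligand Cd274 (PD-L1) went the other way, at 184.0 and 276.0 CPM, a ratio of 0.667 (0.604 to 0.735). With GCV, 1 of 10 genes was at least 2-fold higher, the adenosine-producing enzyme Nt5e at 141.6 and 23.2 CPM, 6.12 times (4.05 to 9.70).

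Of 18 growth factor and matrix genes, 7 were at least 2-fold higher and 1 lower in the GCV members than in Pdgfrb-TK/PBS, with a median of 0.63 that was -0.07 against WT/PBS. The cytokine Osm was at 119.7 and 38.3 CPM and the EGF receptor ligand Hbegf at 122.5 and 43.3 CPM, 2.83 times (2.08 to 3.94). Of 10 p53 target genes, 3 were higher and 0 lower, with a median of 0.76 that was 0.15 against WT/PBS, and the cell cycle inhibitor Cdkn1a was at 402.4, 116.8, 216.5 and 512.3 CPM over the 4 libraries.

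The other lists are given by their genes past 2-fold and their median log2 ratio. Macrophage identity holds the 6 macrophage genes of the rule and complement the 3 C1q genes, so their counts are a description. For GCV against Pdgfrb-TK/PBS, macrophage identity had 1 of 14 genes higher and 2 lower (median -0.14), complement 0 of 14 higher and 1 lower (-0.37), and lipid-associated genes 0 of 16 higher and 1 lower (-0.25). Efferocytosis and scavenger receptors had 1 of 15 higher and 4 lower (-0.26), MHC class I 2 of 14 higher and 1 lower (-0.21), and the interferon response 1 of 11 higher and 3 lower (-0.43) but 0 of 18 higher and 9 lower against WT/PBS (-1.02). Fc receptors had 0 of 6 past 2-fold (-0.34) and iron and heme genes 0 of 8 higher and 1 lower (0.09).

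For D-CAN against WT/PBS, macrophage identity had 4 of 14 genes higher, among them Adgre1 and Lyz2 of the rule, and 0 lower (median 0.28) but 0 of 14 past 2-fold against Pdgfrb-TK/PBS (0.17), efferocytosis and scavenger receptors 2 of 14 higher and 3 lower (0.22), and lysosome genes 1 of 21 higher and 2 lower (-0.09). Inflammatory genes had 1 of 11 higher and 3 lower (-0.78), but 5 of 10 higher and 0 lower against Pdgfrb-TK/PBS (1.17). Monocyte genes had 3 of 9 higher and 2 lower (-0.51). Stress genes had 2 of 18 higher and 2 lower (-0.17), but 13 of 18 higher and 0 lower against Pdgfrb-TK/PBS (1.29). Growth factors had 0 of 17 higher and 4 lower (-0.21), iron and heme genes 0 of 9 higher and 3 lower (-0.26), hypoxia genes 0 of 18 higher and 1 lower (-0.06), and p53 targets 0 of 8 higher and 2 lower (-0.10). M1 genes had 1 of 7 higher and 1 lower (0.18) but 5 of 6 higher and 0 lower against Pdgfrb-TK/PBS (1.64), and M2 genes 0 of 7 higher and 3 lower (-0.41) but 0 of 6 higher and 5 lower (-2.41 against Pdgfrb-TK/PBS).

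Transcripts of other cell types were summed over the members and are given for the GCV library first, its PBS library next, then D-CAN and last WT/PBS. The pericyte list stood at 4.82, 20.1, 4.02 and 9.14 CPM, the mesothelial list at 65.4, 88.6, 32.5 and 57.8 CPM and the acinar list at 30.9, 48.3, 140.7 and 10.8 CPM. The mast cell list stood at 0.777, 3.02, 0 and 1.49 CPM and the erythroid list at 0.777, 50.3, 0 and 0.213 CPM. The endothelial list lay between 18.0 and 44.9 CPM.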
